A study of Mus musculus with 4 samples.

Results

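Untreated culture was followed in time by comparing the control library taken at 48 h with the control library taken at 24 h. These are 2 of the 4 libraries of the study, identified by their treatment and time labels, and 12160 of the 12208 genes in the deposited table had a mean of at least 1 CPM (reads of a gene divided by the reads of all listed genes and scaled to 1000000) over the 4 libraries and were compared. The cells are mouse 3T3 cells, which the labels describe as pre-osteoblast; 3T3 is also the name of fibroblast lines. The treatment label is control in 2 groups, with no agent named, and LTAlpha1Beta2 (written LTα1β2 here), the membrane-bound lymphotoxin heterotrimer, in the other 2, each with time points of 24 h and 48 h. Each group was 1 library, and no source states that the libraries came from separate cultures, what was added to the control cells, when it was changed or how dense the cells were.

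Cells in culture respond to serum with a fast transcriptional wave. Immediate early genes such as Egr1 and Fos are switched on by growth factor signalling through ERK kinases and the serum response factor SRF, and their RNAs are short-lived. Matricellular genes such as Ccn1 and Ccn2 respond to the actin cytoskeleton and cell spreading through SRF with its MRTF partners and through the coactivator YAP with TEAD factors. The genes of sterol synthesis are controlled together by SREBP2, which is released when membrane sterol is low.

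The CPM steps gave a depth of 15995777 reads at 24 h and 13097396 at 48 h in control, and 14986101 and 11355974 in treated cells. The osteoblast-lineage markers Runx2, Sp7, Dlx5, Pth1r, Omd, Col1a1 and Bglap were in the table, 7 of 9 listed, with Bglap (osteocalcin) at only 1.125 and 1.298 CPM in the 2 control libraries; Alpl and Ibsp were not in it. The fibroblast list had 8 of 9 members in the table. Of the other lists, 4 of 9 macrophage, 1 of 7 endothelial, 0 of 7 epithelial, 1 of 6 adipocyte, 2 of 6 chondrocyte and 1 of 6 skeletal muscle markers were in it, and the summed macrophage markers, mostly Lyz2, were 72.1 CPM at 24 h and 83.8 CPM at 48 h in control. Transcript length here is that of the longest annotated transcript of each gene, and no RNA length was measured. Its read-weighted median was 3127 bases in treated cells at 48 h, the lowest of the 4 libraries. It was 3659 and 3595 bases in control and 3588 in treated cells at 24 h.

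Among the genes in the deposited table, control cells differed little between 24 h and 48 h. The lowest value was 0.750 CPM in the 24 h control library and 0.764 CPM in the 48 h one. A gene near 0 at either time is therefore not listed and could not be counted. By a log2 ratio of CPM + 1, 49 genes were at least 1.5-fold higher at 48 h (0.403% of those compared) and 121 at least 1.5-fold lower (0.995%). At 2-fold the counts were 1 and 3. The middle 95% of genes lay between log2 folds of -0.47 and 0.35, with a median of -0.02, and 84.6% of genes were within 1.2-fold. With 1 library a side no test of this difference exists, so the ratios carry exact 95% intervals for counting error only, which leave out the spread between cultures. That interval lay above 1 in 1308 genes (10.8%) and below 1 in 1856 (15.3%). It narrows with more reads, so abundant genes can pass it at smaller changes. Of all genes compared, 45.8% had a log2 fold above 0.

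Most of the 170 genes were close to the detection floor. Their median level in control was 3.51 CPM for the higher and 3.57 CPM for the lower genes, against 34.1 CPM over all genes compared. At 10 CPM or more, 7 higher and 20 lower genes remained. At 50 CPM or more there were 0 higher and 3 lower genes among 4653, Egr1 and Col2a1 among them. The whole counting interval lay beyond 1.5-fold in 3 of the 49 and 10 of the 121. The 3 were Fhod3, a formin gene, Cd1d1, a lipid antigen-presenting molecule, and Mmp9. Beside the threshold, 0610009L18Rik was the last gene counted as higher (log2 fold 0.586) and Apobr the first that was not (0.578), and Klhdc8b (-0.586) and Lrrc51 (-0.583) stood on either side of the lower one. Because 1 is added to each CPM, folds of genes near 1 CPM are understated.

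**Figure D1:**
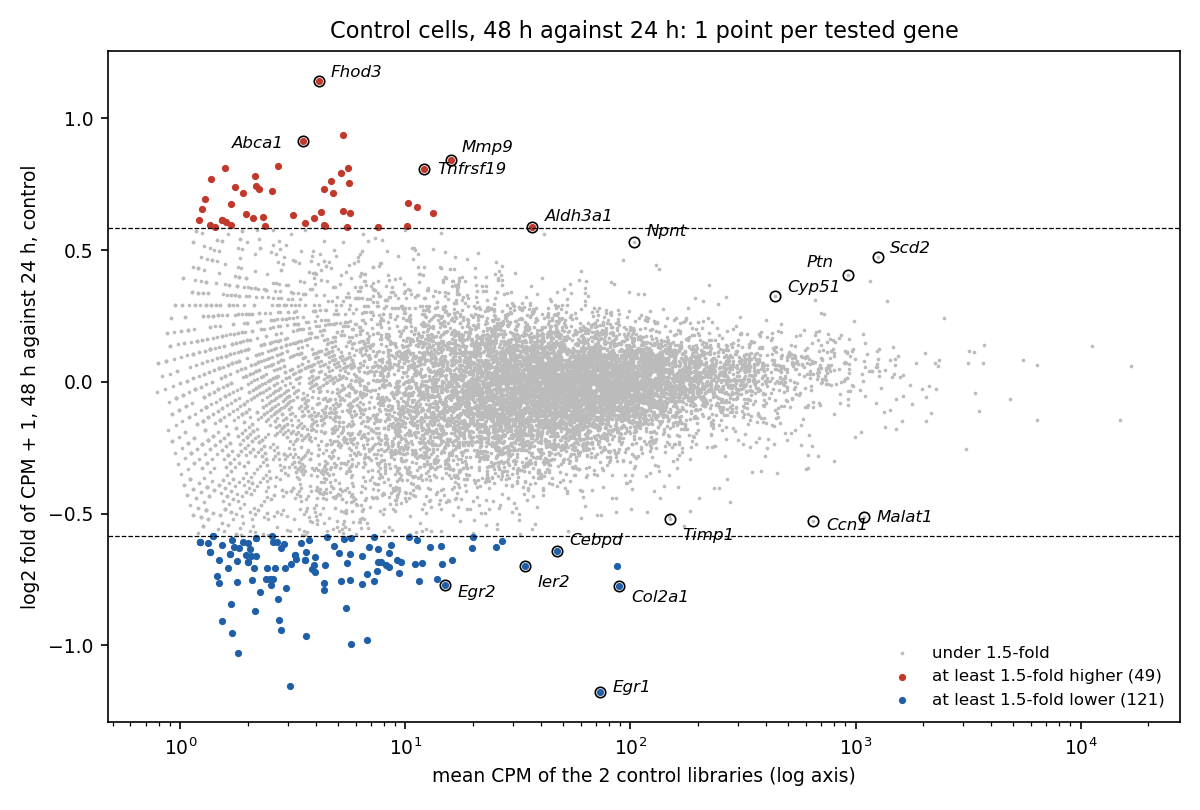
Log2 fold of CPM + 1 at 48 h against 24 h in control (y axis) against the mean CPM of both control libraries (x axis, log scale), 1 point per compared gene, with 1.5-fold marked by dashed lines. The 49 higher genes (red) and 121 lower genes (blue) lie mostly at low levels, while Egr1 and Col2a1 are among the 3 lower genes at 50 CPM or more.

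Immediate early genes had the lowest median log2 fold of the 27 lists, -0.128. The interferon-stimulated list was almost level at -0.125, with 26 of 29 below 0. Egr1, a zinc finger transcription factor induced by ERK signalling, was at 101.7 CPM at 24 h and 44.4 CPM at 48 h in control, and at 76.4 and 34.8 CPM in treated cells. Both 48 h libraries were thus below both 24 h libraries, and the ratio in control was 0.437 (95% counting interval 0.397 to 0.481). It had the lowest log2 fold of all genes compared, -1.18, with -1.11 in the treated pair. Its paralog Egr2 went from 19.2 to 10.8 CPM (0.565, 0.460 to 0.691), and Egr3 from 15.3 to 10.7 CPM (0.701, 0.565 to 0.866). Ier2, a small nuclear protein of the same response, was at 42.3 and 25.7 CPM (0.606, 0.530 to 0.692), with 44.3 and 28.8 CPM in treated cells. Fos, the AP-1 subunit, was at 10.5 and 6.34 CPM (0.603, 0.458 to 0.789), and 8.67 and 4.49 CPM in treated cells.

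The change did not extend to the whole list. Of 35 genes, all of them compared, 21 were below 0 and 14 above, 5 were at least 1.5-fold lower and 1 at least 1.5-fold higher, and the median log2 fold was -0.13 against -0.02 over all genes. The fifth lower gene was Zfp36, which encodes the mRNA-destabilising protein tristetraprolin (17.7 to 11.1 CPM). Other members were lower without reaching 1.5-fold. Dusp5, a phosphatase of nuclear ERK, had a ratio of 0.698 (0.594 to 0.819), Klf10, a TGF-β-inducible repressor, 0.734 (0.648 to 0.831), Junb 0.779 (0.727 to 0.835) and Ptgs2, the inducible cyclooxygenase, 0.756 (0.694 to 0.824). By contrast Jun (115 and 123 CPM), Myc (59.5 and 61.7 CPM), Srf (93.9 and 98.0 CPM) and Fosb (2.501 and 2.520 CPM) were at like levels at both times. Atf3, a stress-inducible member of the ATF/CREB family, was the exception on the other side, at 1.06 and 2.44 CPM (2.30, 1.24 to 4.41), a value that rests on few reads. The counting interval lay below 1 in 15 and above 1 in 4 of the 35, against 15.3% and 10.8% of all genes.

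The promoters of 2 members that were lower are shown because they hold the CArG box, the DNA element that SRF binds. Sequences are from RefSeq on GRCm38.p6 and run from 250 bases before to 50 after a transcription start, with the CArG box in capitals. The window is chr10:67537316-67537615 (plus strand, 1 of 5 entries for the gene) for Egr2 and chr19:53528895-53529194 (plus strand) for Dusp5.

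Egr2: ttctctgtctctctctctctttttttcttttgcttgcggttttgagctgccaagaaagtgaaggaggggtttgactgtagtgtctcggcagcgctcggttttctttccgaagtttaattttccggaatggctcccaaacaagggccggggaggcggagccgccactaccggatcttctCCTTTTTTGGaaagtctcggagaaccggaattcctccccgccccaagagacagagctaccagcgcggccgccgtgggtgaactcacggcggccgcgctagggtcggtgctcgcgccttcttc
Dusp5: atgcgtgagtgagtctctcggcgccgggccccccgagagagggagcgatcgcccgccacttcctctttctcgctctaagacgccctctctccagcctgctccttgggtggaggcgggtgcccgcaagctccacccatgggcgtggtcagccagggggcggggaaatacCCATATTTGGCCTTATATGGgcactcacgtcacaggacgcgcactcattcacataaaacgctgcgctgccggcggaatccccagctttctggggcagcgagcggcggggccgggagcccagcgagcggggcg

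Egr2 has 1 box starting 72 bases before the start site and Dusp5 has 2, at 82 and 72 bases before. The CArG pattern matches its own reverse complement, so each box was found on both strands and counted once. Of the 25 immediate early genes with a promoter in the table, 4 held one: Dusp5, Egr2, Srf and Zfp36, against 1.63% of all 32851 promoters. Srf has the box with a ratio near 1, and Ier2, which was lower, has none in this window. A match is a run of letters and no measured binding site.

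Of the 21 actin-, SRF- and YAP-linked genes compared 15 were below 0 and 6 above, and the median log2 fold was -0.09, against -0.02 over all genes. The counting interval lay below 1 in 11 and above 1 in 4, against 15.3% and 10.8% of all genes. Ccn1, a secreted matricellular protein also named Cyr61, was at 768 CPM at 24 h and 532 CPM at 48 h in control (0.692, 0.672 to 0.713), and at 557 and 324 CPM in treated cells. Ccn2, also named CTGF, was at 70.8 and 52.0 CPM (0.735, 0.667 to 0.809), and at 59.6 and 42.3 CPM. For both of these genes the 2 libraries of 48 h were below both 24 h libraries. Ankrd1, a cardiac ankyrin repeat protein and common YAP reporter, was lower in control (59.8 to 44.6 CPM, 0.745, 0.671 to 0.827) but at 56.8 and 64.3 CPM in treated cells. Amotl2, an angiomotin that binds YAP, was at 441 and 371 CPM (0.840, 0.809 to 0.871).

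Other members of the list had ratios near or above 1. Smooth muscle actin Acta2 was at 1059 and 1037 CPM (0.979, 0.957 to 1.00), Actb at 3435 and 3332 CPM, and the tropomyosin gene Tpm1 at 1169 and 1202 CPM. Vcl, which encodes the focal adhesion protein vinculin, was higher at 48 h, at 194 and 251 CPM (1.29, 1.23 to 1.36), and was at 138 and 133 CPM in treated cells. Over the list 1 gene was 1.5-fold lower and 0 higher.

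The promoters of Ccn1 (chr3:145649936-145650235, minus strand) and Ankrd1 (chr19:36119795-36120094, minus strand) are given to show the TEAD core, GGAATG or its reverse complement CATTCC, in capitals.

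Ccn1: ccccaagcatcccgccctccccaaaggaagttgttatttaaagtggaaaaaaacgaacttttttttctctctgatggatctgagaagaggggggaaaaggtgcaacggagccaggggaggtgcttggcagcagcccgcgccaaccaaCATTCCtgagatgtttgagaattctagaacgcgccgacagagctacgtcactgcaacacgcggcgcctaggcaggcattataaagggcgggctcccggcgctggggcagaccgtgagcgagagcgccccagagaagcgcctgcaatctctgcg
Ankrd1: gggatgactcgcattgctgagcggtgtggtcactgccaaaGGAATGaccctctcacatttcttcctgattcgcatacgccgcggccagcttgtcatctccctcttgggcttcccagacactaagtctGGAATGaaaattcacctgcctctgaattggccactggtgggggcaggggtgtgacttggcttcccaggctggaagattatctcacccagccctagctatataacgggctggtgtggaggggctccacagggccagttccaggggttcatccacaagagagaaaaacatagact

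The match in Ccn1 starts 103 bases before the start site and those in Ankrd1 210 and 123 bases before. The core was found on either strand in 11 of the 16 members with a promoter in the table (68.8%), against 14.7% of all promoters. The 11 include Acta2, Tpm1 and Vcl, whose levels were even or higher at 48 h.

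**Figure D2:**
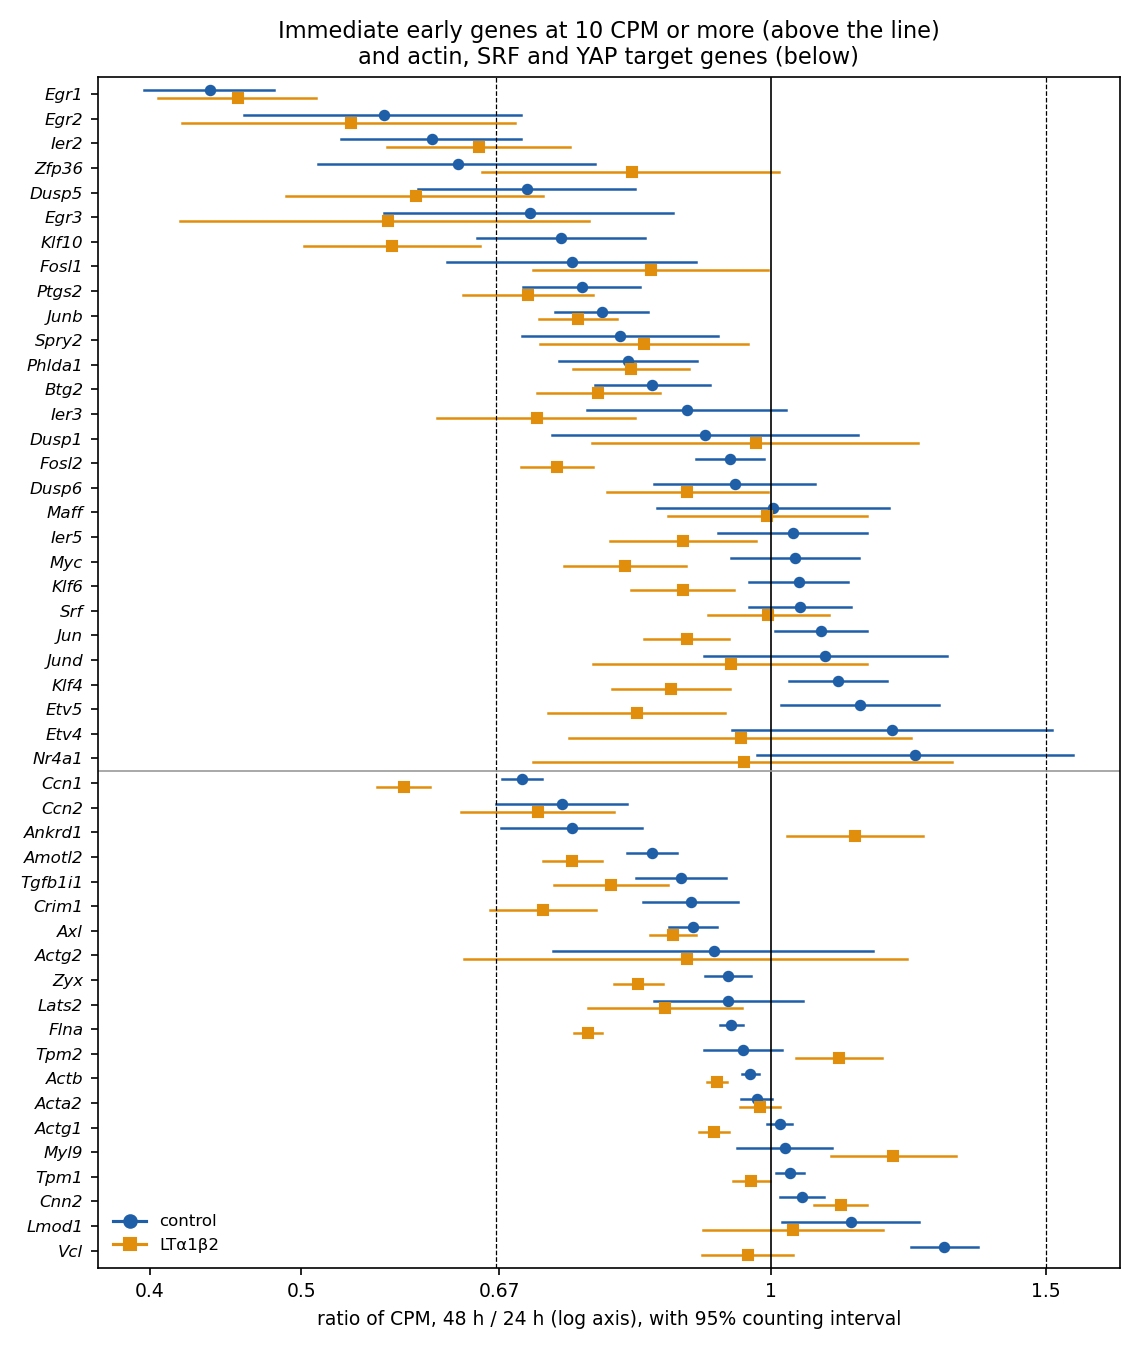
Ratio of CPM at 48 h to that at 24 h (x axis, log scale) with its 95% counting interval, in control (blue circles) and LTα1β2-treated cells (orange squares), for immediate early genes at 10 CPM or more in control (above the grey line) and for 20 of the 21 actin, SRF and YAP target genes (below). Dashed lines mark 1.5-fold. Egr1 lies lowest in control at 0.437 and Vcl highest of the lower block at 1.29.

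Most sterol synthesis genes were higher at 48 h by a small amount, with log2 folds over the list from -0.33 to 0.41. Of the 20 enzymes listed, all compared, 19 were above 0 and 1 below, against 45.8% of all genes above 0, and the median log2 fold was 0.24, the highest of the 27 lists. None reached 1.5-fold. The counting interval lay above 1 in 17, against 10.8% of all genes. It included 1 for Pmvk (1.08, 0.940 to 1.25) and Ebp (1.06, 0.924 to 1.22). The enzymes of the mevalonate arm gave Hmgcs1, HMG-CoA synthase, at 161 and 191 CPM (1.18, 1.12 to 1.25), Mvk, mevalonate kinase, at 47.0 and 57.7 CPM (1.23, 1.11 to 1.36), and Mvd, which makes isopentenyl diphosphate, at 21.4 and 28.7 CPM (1.34, 1.16 to 1.56). In the arm after squalene, Sqle, squalene epoxidase, was at 250 and 286 CPM (1.145, 1.095 to 1.197), Cyp51, lanosterol demethylase, at 390 and 489 CPM (1.254, 1.210 to 1.298), Msmo1, the next oxidase, at 163 and 198 CPM (1.22, 1.15 to 1.29), and Dhcr7, which makes cholesterol from its last precursor, at 32.8 and 39.2 CPM (1.198, 1.059 to 1.356). Fdps was at 6.44 and 8.70 CPM, and how its reads were shared with its near-identical copies is not given. The exception was Tm7sf2, a sterol reductase, at 20.9 and 16.5 CPM (0.787, 0.661 to 0.937).

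Genes of sterol sensing moved less uniformly. Insig1, which holds SREBP in the endoplasmic reticulum and is itself an SREBP target, was at 235 and 294 CPM (1.252, 1.197 to 1.310). The SREBP2 gene Srebf2 was at 292 and 303 CPM (1.04, 0.993 to 1.08). Abca1, the cholesterol exporter induced by LXR receptors, was at 2.13 and 4.89 CPM (2.30, 1.49 to 3.59), at few reads, while Npc1, the lysosomal cholesterol transporter, was at 48.3 and 40.9 CPM (0.847, 0.757 to 0.947). The list median over 15 genes was 0.00. Fatty acid synthesis genes had 13 of 17 above 0 and a median of 0.11, led by the stearoyl-CoA desaturase gene Scd2 at 1052 and 1463 CPM (1.39, 1.36 to 1.42) and the acyl-CoA synthetase gene Acsl3 at 77.6 and 107 CPM (1.38, 1.28 to 1.49). Fasn, fatty acid synthase, was nearly even at 429 and 448 CPM (1.05, 1.01 to 1.08).

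In the treated pair the sterol genes lay on both sides of 0. There 13 of 20 were above it, against 35.7% of all genes, and the median was 0.21 against -0.13 over all genes. Idi1, isopentenyl diphosphate isomerase, went from 35.0 to 64.2 CPM in that pair. The difference between the pairs was not tested, and the treated 48 h library also differs in the read-weighted median of annotated transcript length.

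**Figure D3:**
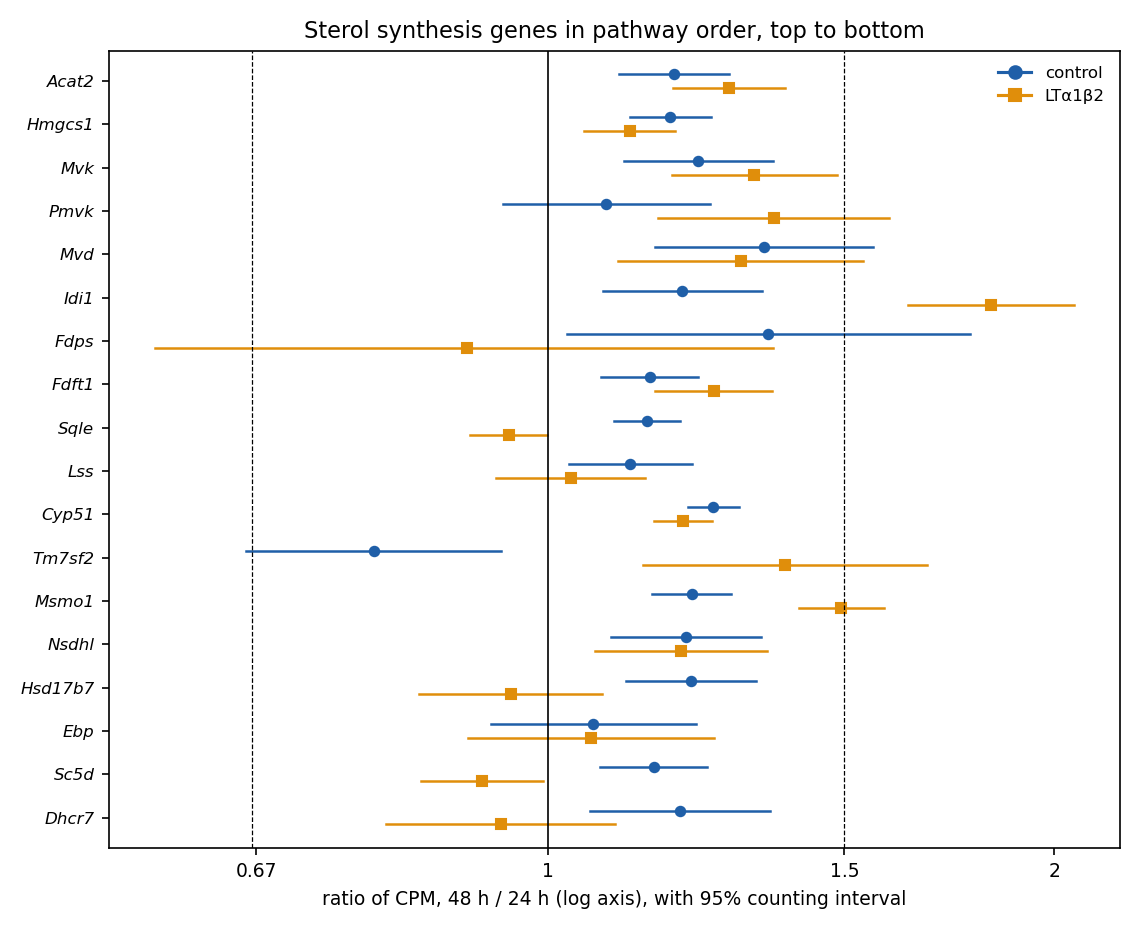
Ratio of CPM at 48 h to that at 24 h (x axis, log scale) with its 95% counting interval for 18 of the 20 sterol synthesis genes in the order of the pathway, in control (blue circles) and LTα1β2-treated cells (orange squares). In control 17 of the 18 ratios lie right of 1 and Tm7sf2 is the exception at 0.787, and the treated ratios lie on both sides.

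The promoters of Hmgcs1 (chr13:119690101-119690400, plus strand) and Cyp51 (chr5:4104648-4104947, minus strand) illustrate the sequence that most of these genes share. Capitals mark the CCAAT box or its reverse complement ATTGG, bound by NF-Y, a usual partner of SREBP, and in Hmgcs1 also TCACCCCAC, the core of the sterol regulatory element.

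Hmgcs1: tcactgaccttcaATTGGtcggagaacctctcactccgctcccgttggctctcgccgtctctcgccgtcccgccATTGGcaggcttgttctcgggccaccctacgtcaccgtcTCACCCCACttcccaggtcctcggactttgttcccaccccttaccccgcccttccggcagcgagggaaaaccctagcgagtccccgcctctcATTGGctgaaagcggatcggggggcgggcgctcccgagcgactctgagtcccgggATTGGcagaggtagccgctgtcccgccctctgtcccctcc
Cyp51: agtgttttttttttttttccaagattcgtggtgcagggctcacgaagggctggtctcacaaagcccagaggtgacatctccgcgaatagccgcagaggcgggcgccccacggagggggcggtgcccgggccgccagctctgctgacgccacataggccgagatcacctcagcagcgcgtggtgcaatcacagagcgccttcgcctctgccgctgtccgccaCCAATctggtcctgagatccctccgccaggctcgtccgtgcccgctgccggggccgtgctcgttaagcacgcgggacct

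Hmgcs1 has 4 CCAAT boxes, 237, 176 and 45 bases before the start site and 10 after it, and the sterol element 137 bases before. Cyp51 has 1 box, 29 bases before. The box was found on either strand in 14 of the 15 sterol synthesis genes with a promoter in the table (93.3%), against 37.4% of all promoters and 43.6% of the 9238 compared genes with one. It was also in 24 of 32 promoters of the mitosis list, whose median fold was 0.04. The exact sterol element core was in 1 of the 15, Hmgcs1, and in 0.551% of all promoters, and variants of it were not searched.

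Proliferation genes were even across the interval. The mitosis list had 25 of 39 members above 0, a median of 0.04 and no member past 1.5-fold, and the DNA replication list 17 of 36 above 0 and a median of -0.02. Mki67, the proliferation antigen, was at 514 and 536 CPM (1.04, 1.01 to 1.08), Top2a, topoisomerase II, at 565 and 591 CPM, and Mcm5, of the replicative helicase, at 152 and 145 CPM. Ccnd1, cyclin D1, was at 351 and 342 CPM, the CDK inhibitor genes Cdkn1a at 257 and 251 CPM and Cdkn1b at 128 and 136 CPM. Txnip, a glucose-responsive thioredoxin inhibitor, was the lowest gene of the cyclin D, CDK inhibitor and p53 target list, at 283 and 214 CPM (0.756, 0.721 to 0.793), and was at 259 and 195 CPM in treated cells.

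Matrix genes went both ways, with medians of -0.02 over 24 collagen modification genes, -0.03 over 28 glycoprotein and proteoglycan genes and 0.06 over 20 protease and inhibitor genes. Of 19 collagen genes 10 were above 0 and 9 below, with a median of 0.04, which was -0.03 over members at 20 CPM or more. Col1a1, the main chain of type I collagen, was at 15684 and 14201 CPM (0.90545, 0.90003 to 0.91090), and its partner Col1a2 at 16407 and 17106 CPM (1.04, 1.04 to 1.05). Col3a1 was at 2270 and 2682 CPM (1.182, 1.164 to 1.199), and the basement membrane gene Col4a1 at 32.9 and 24.0 CPM (0.728, 0.631 to 0.838). Of the 28 glycoprotein and proteoglycan genes 12 were above 0 and 16 below. The counting interval lay above 1 in 12 and below 1 in 12, against 10.8% and 15.3% of all genes. Members that were higher, most of them picked after their values were seen, were Aspn (587 and 728 CPM), Omd (55.1 and 70.8 CPM), Dcn (31.3 and 40.6 CPM) and Postn (1016 and 1152 CPM), and the highest was the integrin ligand Npnt, at 84.6 and 123 CPM (1.45, 1.35 to 1.56). In treated cells Npnt was lower at 48 h, at 36.1 and 15.9 CPM. Fn1, fibronectin, was at 6702 and 6054 CPM (0.903, 0.895 to 0.912) and Lox, the collagen cross-linking oxidase, at 682 and 543 CPM (0.797, 0.773 to 0.821). Among proteases and inhibitors, Mmp9, gelatinase B, was at 11.2 and 20.8 CPM (1.86, 1.54 to 2.26), with 93.4 and 147 CPM in treated cells, and Timp1, a metalloprotease inhibitor, at 177 and 123 CPM (0.695, 0.654 to 0.740).

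Skeletal genes mostly stayed within 1.5-fold, with Col2a1 past it at a sizeable level. Runx2 was at 116 and 126 CPM and Sp7 at 35.1 and 30.8 CPM, while osteopontin, Spp1, was higher, at 1234 and 1525 CPM (1.24, 1.21 to 1.26). In treated cells Runx2 was at 91.5 and 67.5 CPM, Sp7 at 12.8 and 7.93 CPM, and Spp1 at 1430 and 2210 CPM. The osteoblast differentiation list had 8 of 16 members on either side of 0, a median of 0.03 and none past 1.5-fold. The cartilage collagen gene Col2a1 (chr15:97975602-98004695, minus strand, 5104 bases of transcript) was at 112 and 65.2 CPM in control (0.581, 0.535 to 0.631) and at 80.5 and 39.8 CPM in treated cells, both 48 h libraries below both 24 h ones. Its regulator Sox9 was at 34.6 and 30.1 CPM (0.869, 0.761 to 0.990). These are the only 2 of 6 chondrocyte markers in the table; fewer cells of a kind and less RNA per cell cannot be told apart in bulk RNA. Col9a3, another cartilage collagen gene that was on no list and was picked after its values were seen, was at 3.75 and 1.68 CPM (0.448, 0.262 to 0.741).

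Stress and metabolic lists were mostly near 0. Of 30 hypoxia and glycolysis genes 19 were above 0 (median 0.07), among them Pdk1, which limits pyruvate oxidation (74.3 and 89.4 CPM, 1.204, 1.110 to 1.306). Pfkfb3, which makes the activator of glycolytic phosphofructokinase, was the lowest of that list (15.9 and 11.7 CPM, 0.733, 0.596 to 0.899). The ATF4 list had 19 of 33 above 0 (median 0.04), led by Chac1, a glutathione-degrading enzyme (8.88 and 13.1 CPM, 1.47, 1.17 to 1.85). Among 19 endoplasmic reticulum chaperone genes 12 were above 0 (median 0.06). The interval lay above 1 in 9, against 10.8% of all genes, and below 1 in 0, against 15.3%. Hspa5, which encodes BiP, was among the 9 (730 and 817 CPM, 1.12, 1.09 to 1.15). Of 14 heat shock genes 8 were below 0 (median -0.02), Hsph1, an HSP110 chaperone, being lowest (386 and 304 CPM, 0.788, 0.757 to 0.821). Antioxidant genes were above 0 in 17 of 20 (median 0.05), with Gstm1, a glutathione transferase, at 219 and 269 CPM (1.23, 1.17 to 1.29), and lysosome genes in 14 of 29 (median -0.01).

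Signalling lists also had small medians. The Wnt list had 4 of 13 above 0 (median -0.04), the TGF-β and BMP list 11 of 22 (median 0.00) and the Notch list 6 of 10 (median 0.01). Ccn5, a Wnt-induced matricellular protein, was at 179 and 142 CPM (0.796, 0.751 to 0.844), and Id1, a BMP target, at 31.9 and 25.5 CPM (0.798, 0.693 to 0.918). Of 20 chemokine, cytokine and NF-κB feedback genes 8 were above 0 (median -0.05). The pentraxin gene Ptx3 was the largest change there at a high level, at 267 and 202 CPM (0.756, 0.720 to 0.794). The adipocyte list had 4 of 11 above 0 (median -0.07). Its gene past 1.5-fold was Cebpd, an early C/EBP factor that is also induced by cytokines and serum, at 57.6 and 36.5 CPM (0.634, 0.566 to 0.709).

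Interferon-stimulated genes were slightly lower in control at 48 h. Of 29 such genes, all compared, 26 were below 0 and 3 above, against 45.8% of all genes above 0. The median log2 fold was -0.125, against -0.02 over all genes. The lowest were Oasl2, an antiviral OAS-like protein, at 101 and 71.5 CPM (0.707, 0.652 to 0.767), Rsad2 at 7.002 and 4.886 CPM, and Stat2, the signal transducer of interferon receptors, at 232 and 171 CPM (0.736, 0.698 to 0.776). Ifit1 was at 148 and 139 CPM and Isg15 at 89.2 and 84.6 CPM. In the treated pair all 29 were above 0, with a median of 0.69; the difference between the pairs was not tested.

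Short, abundant transcripts were slightly higher. Of the 84 cytosolic ribosomal protein genes 77 were above 0 with a median of 0.08, and 11 of 12 mitochondrially encoded genes with a median of 0.10. These genes have a median transcript length of 1054 and 870.5 bases against 3355 over all genes compared. Across 12157 genes the control fold had a Spearman correlation of -0.122 with transcript length, given as a description, and with that trend removed the medians were 0.04 and 0.06. Transcript length and time cannot be told apart with 1 library each. The reads of several of these genes can be shared with near-identical copies elsewhere in the genome.

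**Figure D4:**
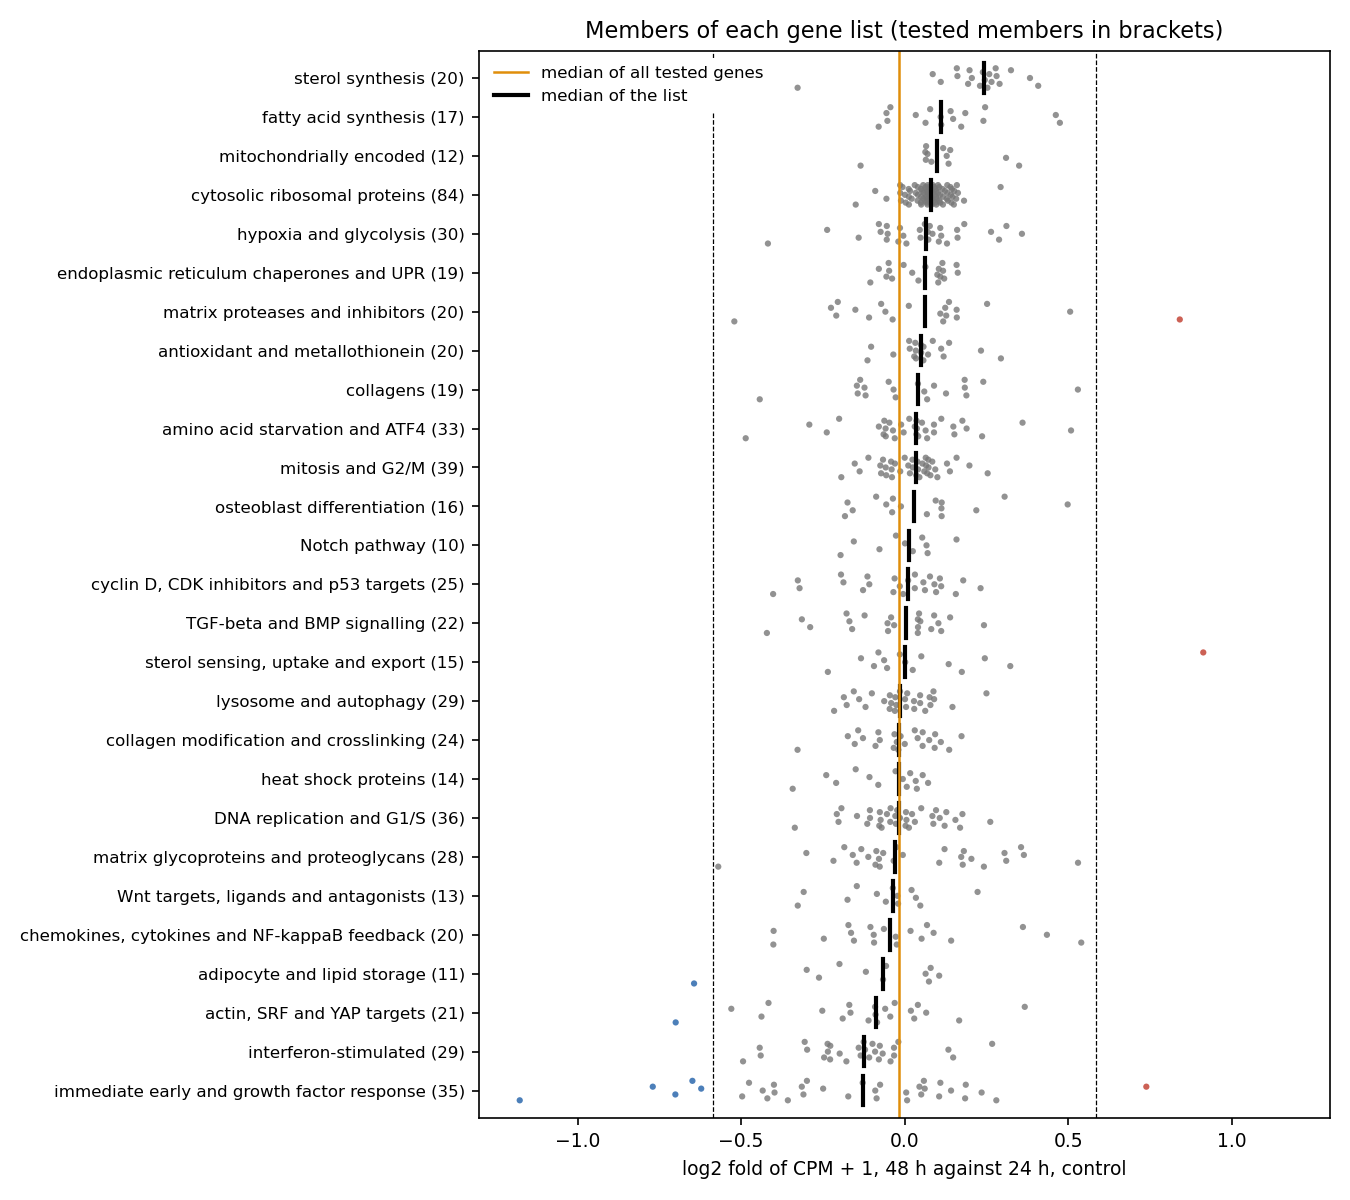
Log2 fold of CPM + 1 at 48 h against 24 h in control (x axis) for each member of the 27 gene lists (rows), with black bars for list medians, an orange line for the median of all compared genes and dashed lines at 1.5-fold. The sterol synthesis list lies highest with a median of 0.24 and the immediate early list lowest with -0.128, almost level with the interferon-stimulated list at -0.125.

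Long non-coding gene models were more common among the lower genes. They were 6.07% of genes compared, 39.7% of the 121 lower genes (48 of them) and 16.3% of the 49 higher genes (8). Between 1 and 5 CPM, where 38 of the 48 lie, 7.28% of 522 long non-coding genes were lower against 3.04% of 1053 protein-coding genes. Between 5 and 20 CPM these were 6.67% of 150 and 1.21% of 2321, with median levels of 8.29 and 11.9 CPM, and at 20 CPM or more 0 of 50 and 8 of 7744. The median log2 fold at 20 CPM or more was -0.023 for the long non-coding genes and -0.006 for the protein-coding genes. Among abundant nuclear RNAs, picked after their values were seen, Malat1 was at 1281 and 896 CPM (0.700, 0.684 to 0.716) and Neat1 at 319 and 232 CPM (0.729, 0.696 to 0.762). Protein-coding genes at like ratios were Ogt, the O-GlcNAc transferase (0.711, 0.673 to 0.752), Kmt2d, a histone H3 methyltransferase (0.683, 0.645 to 0.723), and Osmr, the oncostatin M receptor (0.702, 0.659 to 0.746). Antisense models are among the long non-coding genes, and no source says if reads were counted by strand, so their reads cannot be told apart from those of the genes they overlap.

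Many of the largest folds of the control difference were those of genes on no list. At 5 CPM or more and among genes whose symbol is not a clone or model name, the highest folds after Cd1d1 (3.31 and 7.25 CPM) and Mmp9 were those of Tnfrsf19, a TNF receptor family member (8.56 and 15.7 CPM), Wnt6, a Wnt ligand (3.50 and 6.80 CPM), Tmem38a, an intracellular cation channel (3.94 and 7.33 CPM), and Nt5e, the ectonucleotidase CD73 (7.69 and 12.9 CPM). In the treated pair the log2 folds were 0.65 for Mmp9, 0.13 for Cd1d1 and 0.08 for Tmem38a. They were below 0 there for Tnfrsf19 (-0.37), Wnt6 (-0.13) and Nt5e (-0.40). The remaining highest in control were Spata13, Ly6f, Robo2, S100b, Aldh3a1 and Nrep, with log2 folds from 0.59 to 0.66. By the same rule the lowest after Egr1 were Ypel4 (8.002 and 3.512 CPM), Dnhd1 (9.25 and 4.20 CPM) and Necab3 (7.31 and 3.59 CPM), then Col2a1, Egr2, the iron exporter gene Slc40a1 (8.38 and 4.505 CPM), Smg9, the long non-coding RNA Bvht, Ttll3, Cyp46a1 and Snx32, with log2 folds from -0.77 to -0.72. At 50 CPM or more, the heparin-binding growth factor gene Ptn was at 799 and 1058 CPM (1.32, 1.29 to 1.36), and the aryl hydrocarbon receptor gene Ahr at 115 and 155 CPM (1.35, 1.27 to 1.44).

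The treated libraries gave a second pair of the same times that shares no library with the control pair. In that pair 678 genes passed 1.5-fold upward (5.58%) and 845 downward (6.95%). Of the 121 genes lower in control, 104 were below 0 in treated cells and 41 at least 1.5-fold lower. Of the 49 higher in control, 31 were above 0, against 35.7% of all genes, and 11 were at least 1.5-fold higher. With the trend of fold with transcript length removed in the treated pair these were 109 and 25. The only gene past 1.5-fold in opposite directions was the gene model Gm6264. Across all genes compared the folds of the pairs had a Spearman correlation of 0.343, as a description.

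Genes with an ordinary symbol that passed 1.5-fold in both pairs were 5 higher and 16 lower. The 5 were Mmp9, Aldh3a1, an aldehyde dehydrogenase (29.1 and 44.2 CPM in the control pair, then 16.3 and 26.1 CPM with LTα1β2), Rhox5, Gstm7 and Cd300lb, the last 3 under 7 CPM. Among the 16 were Egr1, Egr2, Ier2 and Col2a1, with Jak3, a cytokine receptor kinase (32.7 and 21.1 CPM, then 36.7 and 22.8 CPM), and Map3k14, the kinase NIK of non-canonical NF-κB signalling (30.9 and 19.6 CPM, then 52.1 and 32.9 CPM).

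**Figure D5:**
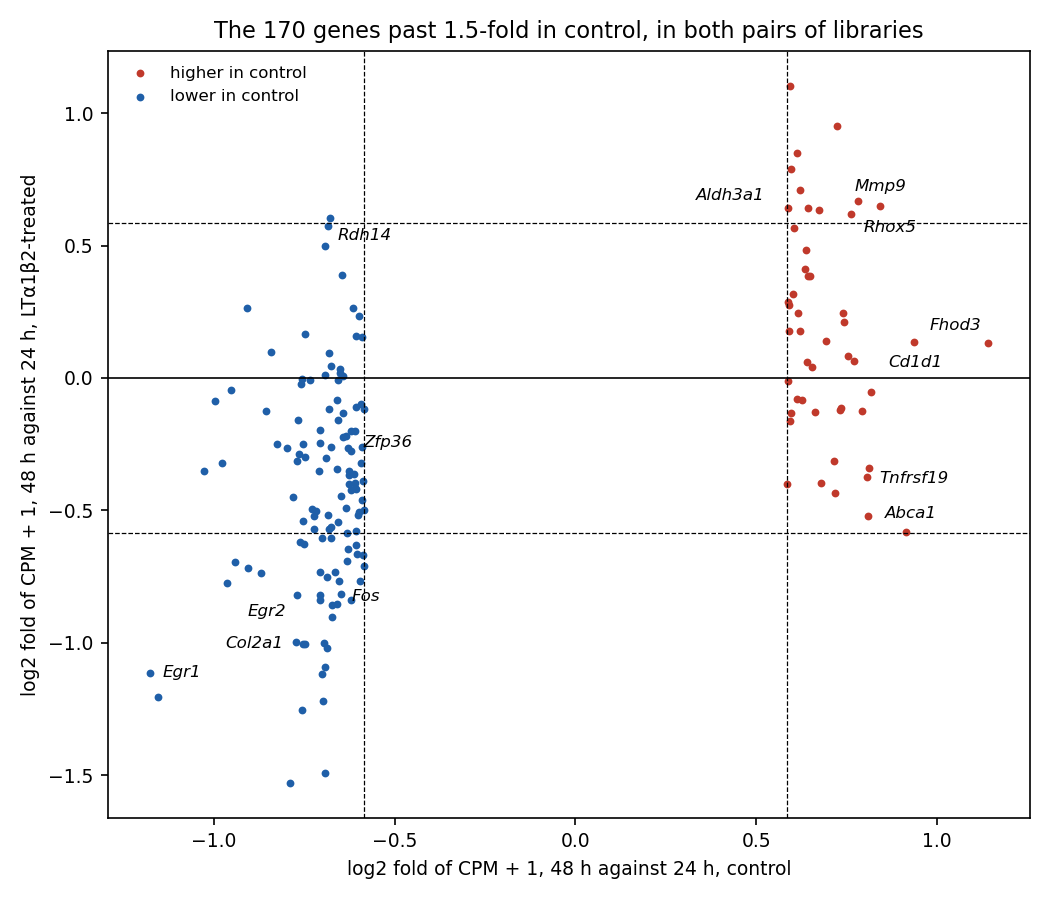
Log2 fold of CPM + 1 at 48 h against 24 h in control (x axis) and in LTα1β2-treated cells (y axis) for the 170 genes past 1.5-fold in control, higher in red and lower in blue, with dashed lines at 1.5-fold. Of the 121 lower genes 104 lie below 0 on the y axis, and of the 49 higher genes 31 lie above it.

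The one test the design allows treats the treated and control pairs as repeats of culture time. In that additive limma fit, 59 genes rose (0.485%) and 60 fell (0.493%) at a Benjamini-Hochberg adjusted p of 0.05. Of the genes past 1.5-fold in control, 3 of the 49 rose and 22 of the 121 fell. The time term averages the folds of both pairs, so it includes the control folds that picked these genes. Its calls and p-values are therefore no separate support for them, Egr1, Col2a1 and Mmp9 included. Egr1 fell with a log2 fold of -1.15 ± 0.17 SE (adjusted p = 2.34e-07, limma) and Col2a1 with -0.89 ± 0.17 (adjusted p = 0.000366). Mmp9 rose with 0.75 ± 0.17 (adjusted p = 0.00785, limma). In the immediate early list 5 of 35 fell, Egr1, Egr2, Ier2, Fos and Klf10, and in the actin and YAP list 2 of 21, Ccn1 among them. In the sterol synthesis list 0 of 20 passed, 4 with an unadjusted p under 0.05, and Cyp51 had a log2 fold of 0.30 ± 0.18 (adjusted p = 0.472, limma). The 9 ribosomal protein and 4 interferon-stimulated genes that rose came from lists whose medians were 0.78 and 0.69 in the treated pair against 0.08 and -0.125 in control. Of the 119 genes, 7 had opposite signs in the 2 pairs.

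That test has 1 residual degree of freedom and its prior degrees of freedom were estimated as infinite, so the fit put the trend value at each expression level in place of a gene's own variance. With median-of-ratios rescaling 0 genes passed (1448 with an unadjusted p under 0.05), and with 1 library left out and time as the only term 0 passed when the library dropped was the 24 h control or the treated one at 48 h, 7 when it was the treated one at 24 h and 2159 when it was the 48 h control.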

How the data were processed

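RNA-seq was deposited by the authors as 1 table of CPM values for 12208 genes in 4 libraries, and the submitters' processing notes name edgeR 3.30.0; aligner, counter, genome build, annotation and strand use were not given in the sources used here. Gene IDs matched GENCODE M21 (GRCm38) in 12205 cases, 11716 with the same version, which supplied biotypes, positions and transcript lengths.

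Folds are log2((CPM + 1)/(CPM + 1)) of 48 h over 24 h for genes with a mean of at least 1 CPM over the 4 libraries. All CPM values were whole multiples, within 0.01 of a read, of 1 step per library, so reads were recovered and used for depth and for exact (Clopper-Pearson) 95% intervals of the ratio, which cover counting error only. Time was tested on log2(CPM + 1) in limma 3.58.1 (R 4.3.3, mean trend, additive treatment term, Benjamini-Hochberg over 12160 genes), and the fit was run on simulated data. The simulated libraries had no treatment effect and 1 level of spread for all genes. They therefore do not show how reliable the calls in these data are. The p-values rest on how far the control and treated pairs differ in fold, pooled over genes of like level. They do not measure the spread between cultures.

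The comparison, 27 gene lists and 8 marker lists were chosen with earlier results of these data known. Named genes were the 12 highest and 12 lowest at 5 CPM or more whose symbol is not a clone or model name (Gm, Rik and the like), up to 4 per list by absolute fold, a set of pathway genes, and up to 10 each way past 1.5-fold in both pairs. Others were chosen after their values were seen. They include the remaining list members, the extremes at 50 CPM or more, Malat1, Neat1, Ogt, Osmr, Jak3, Map3k14, Col9a3, Fhod3 and the genes at the thresholds. The sterol element motif was shortened to its core after the promoters were seen. Alternatives were other pseudocounts, filters, rescalings, removal of the trend of fold with transcript length (lowess) and leaving out libraries. Some members of the lists are counted in them and are not reported here by name or drawn in the plots by gene.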

Additional observations from a re-analysis of the deposited data

Results flagged for a closer look

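Some results had opposite signs in the control and treated pairs; the difference was not tested in any of them. The interferon-stimulated list had a median log2 fold of 0.688 in treated cells, with 29 of 29 genes above 0, and -0.125 in control. The fatty acid synthesis list had a median of -0.171 in treated cells, with 3 of 17 above 0, and 0.11 in control. Over all genes compared the treated pair had a median of -0.129, with 35.7% above 0. With the trend of fold with transcript length removed in that pair, the fatty acid list had a median of -0.073, with 6 of 17 above 0. Nt5e, the ectonucleotidase CD73, had a log2 fold of -0.398 in treated cells and 0.68 in control. Abca1, the cholesterol exporter, had -0.584 in treated cells and 0.91 in control. Npnt, the integrin ligand, had -1.14 in treated cells and 0.53 in control.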

How the results depend on the processing

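The counts of genes past 1.5-fold in control (49 higher, 121 lower) depended on how low values were handled: 115 and 285 with a pseudocount of 0.25, 3 and 9 with 5, and 13 and 40 with a mean of at least 5 CPM. At 2-fold they were 1 and 3, and 3 and 10 with the whole counting interval past 1.5-fold. Without the filter, under median-of-ratios rescaling, without mitochondrially encoded genes in the total or with the length trend removed they stayed within 1.5 times. The 119 genes called by limma became 0 under median-of-ratios rescaling, and 0 to 2159 with 1 library left out, the highest without the 48 h control and 0 without the 24 h control or the treated 48 h library; the cause was not tested. No named gene changed direction; 27 dropped below 1.5-fold with a pseudocount of 5 and 2 with the length trend removed. Collagens had a median of -0.03 over members at 20 CPM or more (chosen after seeing the data), and mitochondrially encoded genes 0.13 under median-of-ratios rescaling, which shifts control folds by 0.03. No paired analysis was possible because each group is 1 library, so no replicate numbers pair samples; the limma fit has treatment as a term, which sets time within each treatment. A count test on recovered reads was not run. With 1 library a group, no spread between cultures can be had for the control difference.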
